A study of Mus musculus with 4 samples.

Results

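The 10 glutathione and NRF2 antioxidant genes were followed in lineage-labelled alveolar type II (AT2) cells of the mouse lung. They were the glutathione S-transferases Gsta1, Gsta4 and Gstp1 and the glutathione synthesis subunits Gclc and Gclm. The others were the thioredoxin and peroxiredoxin genes Txnrd1, Srxn1 and Prdx6, the quinone reductase Nqo1, and Hmox1, which breaks down haem. These 10 are among the 17117 genes of the table and were chosen by name after earlier results of the same 4 libraries were known. Their levels and their differences between libraries are therefore given as descriptions, without a test. The per-cell relation of each gene to Krt8, a keratin of cells leaving the AT2 state, belongs to the same choice.

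AT2 cells make surfactant and renew the alveolar epithelium. The null PNX and null sham mice carried Sftpc-CreER, Cdc42flox/- and the Rosa26-mTmG reporter, and the control PNX and control sham mice carried Sftpc-CreER, Cdc42flox/+ and the same reporter. PNX is the removal of part of the lung, here followed to day 21, and sham is the operation without removal. Every mouse received 4 doses of tamoxifen, which activates Cre in cells that express Sftpc, and GFP+ cells were sorted, so all 4 groups share tamoxifen, Cre and the reporter, and control cells also had a floxed Cdc42 allele. The labels give postnatal day 80 for all groups and do not tie it to surgery or to collection. Each group is 1 library, the sources used here do not give the number of mice behind a library, and genotype, surgery and library therefore cannot be told apart from the mice and preparation they came with.

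Alveolar cells were those with Sftpc at 2% or more of their unique molecular identifiers (UMIs, one per captured RNA molecule) or at least 1 UMI of Cldn4, a claudin of transitional cells, and with 0 UMIs of Ptprc, Pecam1 and Col1a2. This kept 8129 of 10077 cells: 1858 of null PNX, 2630 of null sham, 1972 of control PNX and 1669 of control sham. Their UMIs summed to 20914459, 14528959, 9977520 and 8145379 in the same order, with median UMIs per cell of 10595 in null PNX and 5129, 4826 and 4763 in the other libraries. All 10 AT2 markers were detected in each library. By the call defined below, 6 were lower for null PNX over control PNX and 1 for null sham over control sham. All 12 transitional markers were higher in both. Of all genes, 21.6% and 6.74% were called lower and 20.7% and 7.97% higher. The part of this shift in the ratios below was not tested. Cells that entered by Cldn4 alone numbered 424 in null PNX, 19 in null sham, 1 in control PNX and 0 in control sham. Cdc42 itself stood at 405, 265, 226 and 184 CPM (a gene's UMIs as a part of all UMIs summed over the library's alveolar cells, on the usual scale) in the same order, which is not lower in null cells, but 3′ tags do not show whether the floxed part, which the sources used here do not name, was lost. Across the libraries, 54 cell barcodes occurred more than once, in 81 alveolar cells in all, and leaving those cells out left all 40 ratios of the 10 genes within their counting intervals.

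Glutathione is the main small thiol of cells, made from glutamate, cysteine and glycine, and glutathione S-transferases couple it to reactive aldehydes and other electrophiles. NRF2, encoded by Nfe2l2, is held by KEAP1 and degraded in resting cells. When electrophiles or oxidants modify KEAP1, NRF2 accumulates and binds, with a small MAF protein, to antioxidant response elements near genes of glutathione synthesis, thioredoxin reduction and NADPH supply. In the lung this system is known for the handling of inhaled oxidants and of the oxygen-rich alveolar surface.

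The promoters are shown because these genes are known as NRF2 targets and because Srxn1, Gclm, Txnrd1 and Gstp1 carried the differences described next. RefSeq promoters of build GRCm38.p6, from 250 bases before to 50 bases after each annotated start, gave 8 sequences for 6 of the 10 genes, and none was listed for Gsta4, Gclc, Hmox1 and Prdx6. Capitals mark the antioxidant response core TGACNNNGC and the AP-1 motif TGACTCA, each searched on both strands, so that a match on the opposite strand reads GCNNNGTCA or TGAGTCA. Srxn1 holds GCTAGGTCA 28 bases after the start and 2 AP-1 motifs, at chr2:152105274-152105573 on the plus strand. The Txnrd1 start at chr10:82858956-82859255 on the plus strand holds GCTTTGTCA 92 bases before the start. Gclm, at chr3:122245307-122245606 on the plus strand, holds GCACCGTCA 134 bases before the start. Gstp1, at chr19:4037863-4038162 on the minus strand, holds 1 AP-1 motif and no match of the core in the form searched. The AP-1 motif of Gstp1 and the later one of Srxn1 are followed by the bases gc. Both promoters thus hold the longer form TGAGTCAGC. It was not counted over all promoters, so no share stands beside it. Whether it serves as an antioxidant response element is not read here.
Srxn1: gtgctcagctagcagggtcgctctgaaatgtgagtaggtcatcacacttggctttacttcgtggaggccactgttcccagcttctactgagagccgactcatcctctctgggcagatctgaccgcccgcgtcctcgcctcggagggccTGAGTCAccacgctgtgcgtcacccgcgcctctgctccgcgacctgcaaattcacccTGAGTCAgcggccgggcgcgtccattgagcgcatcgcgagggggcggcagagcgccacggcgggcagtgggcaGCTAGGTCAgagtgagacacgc
Txnrd1: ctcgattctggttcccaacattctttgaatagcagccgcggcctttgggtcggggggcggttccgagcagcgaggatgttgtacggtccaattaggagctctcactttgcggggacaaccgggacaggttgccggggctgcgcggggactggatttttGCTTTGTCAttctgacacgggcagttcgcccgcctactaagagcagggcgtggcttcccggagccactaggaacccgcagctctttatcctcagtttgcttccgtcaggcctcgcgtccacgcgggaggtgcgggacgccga
Gclm: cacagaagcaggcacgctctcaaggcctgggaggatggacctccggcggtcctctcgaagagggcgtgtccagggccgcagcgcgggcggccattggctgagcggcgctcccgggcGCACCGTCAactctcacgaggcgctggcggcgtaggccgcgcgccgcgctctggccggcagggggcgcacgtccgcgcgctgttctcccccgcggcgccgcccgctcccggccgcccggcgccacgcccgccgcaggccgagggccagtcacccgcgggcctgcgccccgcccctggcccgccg
Gstp1: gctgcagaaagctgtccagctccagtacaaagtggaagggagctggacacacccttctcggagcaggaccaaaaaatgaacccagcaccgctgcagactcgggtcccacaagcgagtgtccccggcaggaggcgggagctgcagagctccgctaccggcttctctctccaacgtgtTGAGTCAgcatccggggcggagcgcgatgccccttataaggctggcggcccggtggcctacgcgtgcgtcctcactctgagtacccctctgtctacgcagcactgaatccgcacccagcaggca
The core was present in 3 of the 8 promoters, of which Txnrd1 has 3, and in 12.4% of all 32851 RefSeq promoters of this length. The AP-1 motif was present in 5.2% of all promoters, and in 149 of those 1709 it overlapped a core. The promoters of Gsta1 and Nqo1 and the other Txnrd1 promoters held neither motif. A match of these letters is a description and shows no binding.

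By CPM, most of the 10 genes stood higher in null than in control cells. So did most of all genes counted, by the median ratios given below. Srxn1 and Gclm were called higher in null cells with PNX and with sham surgery, Txnrd1 with PNX, Gstp1 was higher in null sham but lower in null PNX than in the matching control, and Prdx6 was higher in neither. Nearly all Gsta1 UMIs were in the null libraries and, within them, in a small number of cells. A gene was called higher or lower where its CPM ratio, divided by the median ratio of the 7060 genes whose CPM averaged 10 or more, reached 1.5 or its inverse. Those median ratios were 1.13 for null sham over control sham, 1.18 for null PNX over control PNX, 1.17 for null PNX over null sham and 1.10 for control PNX over control sham. Gsta1 and Nqo1 had a mean under 10 CPM and were not counted, which left 8 of the 10 genes.

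For null sham over control sham, 3 of the 8 genes were called higher (Srxn1, Gstp1 and Gclm) and 0 lower, where 7.97% of all genes were called higher and 6.74% lower. For null PNX over control PNX, 4 were called higher (Srxn1, Gclm, Gsta4 and Txnrd1) and 2 lower (Gstp1 and Prdx6), where 20.7% of all genes were called higher and 21.6% lower. For null PNX over null sham, 0 were called higher and 2 lower (Gstp1 and Prdx6), beside 16.2% and 20.1% of all genes. For control PNX over control sham, Gstp1 alone was called higher and 0 were lower, beside 3.57% and 3.13%. The median shifted log2 ratio of the 8 genes was 0.46, 0.63, -0.22 and -0.05 in these comparisons, against 0 for all genes by construction. The genes were chosen with these comparisons known, so nothing about the group follows from these counts. All 95% intervals of levels and ratios here are exact and cover counting error only.

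**Figure D1:**
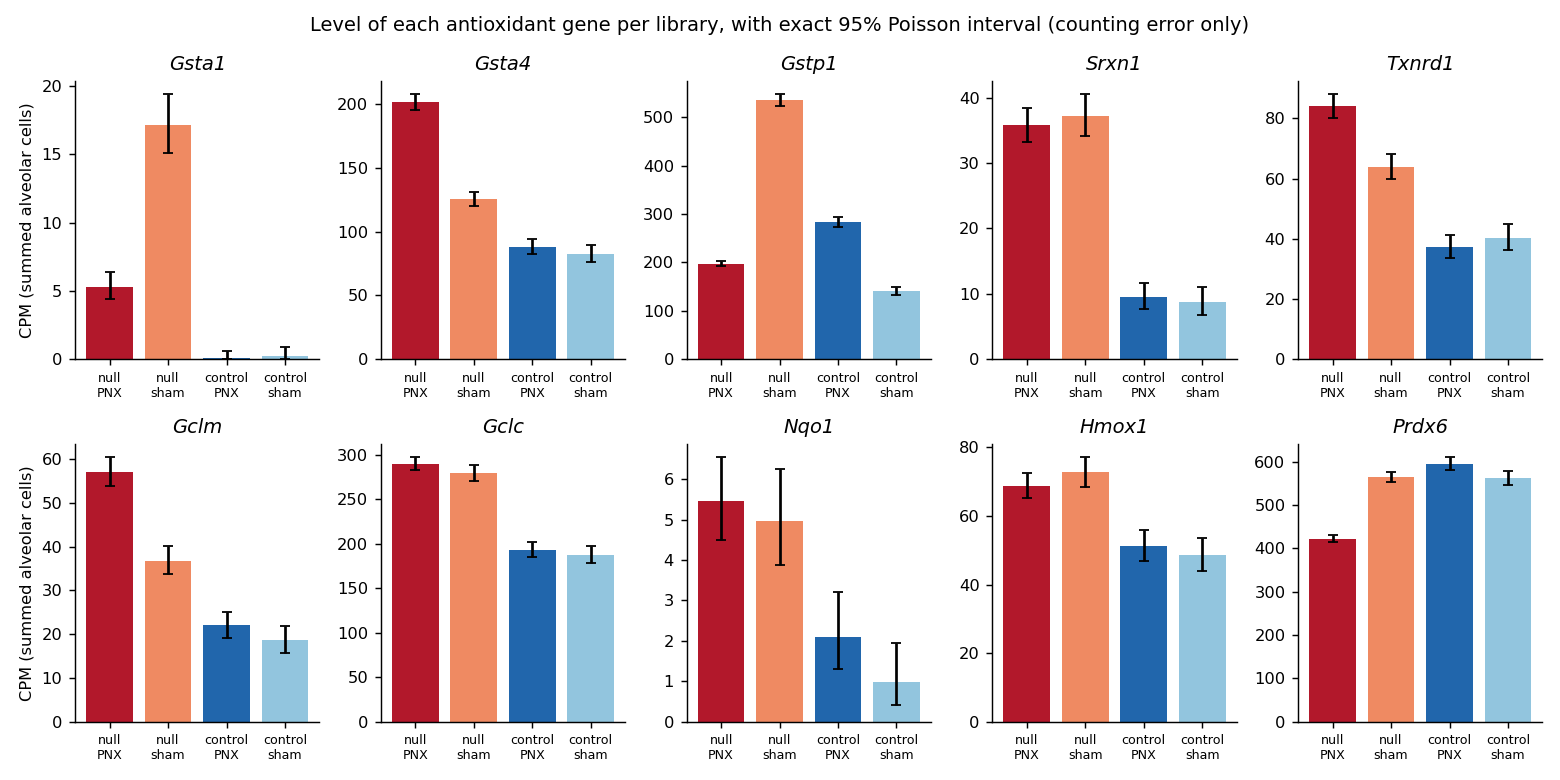
Level of each of the 10 genes in the 4 libraries, in CPM of UMIs summed over alveolar cells, with exact 95% Poisson intervals as bars. Srxn1 stands at 35.8 and 37.2 CPM in null PNX and null sham, above 9.52 and 8.72 CPM in control PNX and control sham, while Gstp1 is highest in null sham.

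Among the glutathione S-transferases, Gstp1 (chr19:4035407-4037985 in build mm10), the pi-class enzyme, differed between every pair of libraries. It stood at 197 CPM in null PNX, 535 CPM in null sham, 283 CPM in control PNX and 140 CPM in control sham. The order was thus null sham, control PNX, null PNX and control sham, with 95% intervals that did not overlap. The ratio was 3.83 (3.59 to 4.07) for null sham over control sham and 0.696 (0.664 to 0.731) for null PNX over control PNX. The ratio after PNX was called lower with all cells but not among cells with 0 Cldn4 UMIs, where its shifted log2 ratio was -0.56 in place of -0.77. For PNX over sham, Gstp1 was lower in null cells, at a ratio of 0.369 (0.355 to 0.383), and higher in control cells, at 2.03 (1.89 to 2.17). The near-identical copy Gstp2 stood at 6.26, 13.4, 7.62 and 6.75 CPM in null PNX, null sham, control PNX and control sham, and the sources used here do not give how reads were divided between the copies.

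Gsta4 (chr9:78182774-78209349), the alpha-class enzyme that conjugates the lipid aldehyde 4-hydroxynonenal, stood at 202 CPM in null PNX, 126 CPM in null sham, 88.0 CPM in control PNX and 82.7 CPM in control sham. It was highest in null PNX, where the ratio to control PNX was 2.29 (2.13 to 2.47), and called higher there. Its ratio for null sham over control sham, 1.52 (1.39 to 1.66), fell short of the call once divided by the median ratio. Gsta1 (chr9:78230656-78242684), an alpha-class enzyme that is strongly induced by NRF2 activators in mouse liver, had 111 UMIs in null PNX, 249 in null sham, 1 in control PNX and 2 in control sham. These are 5.31, 17.1, 0.1002 and 0.246 CPM, and both control values lie under the 3-count floor of 0.301 CPM in control PNX and 0.368 CPM in control sham. With 1 and 2 UMIs in the controls, the ratio was 53.0 (9.31 to 2110) for null PNX over control PNX and 69.8 (19.1 to 580) for null sham over control sham. A single null sham cell held 48 of the 249 UMIs, 19.3%. Its paralog Gsta2, named here after its values were seen, had 38, 24, 0 and 2 UMIs in null PNX, null sham, control PNX and control sham, and reads of the pair may have been divided between them.

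Glutathione synthesis starts with glutamate-cysteine ligase, whose catalytic subunit is Gclc (chr9:77754535-77794485) and whose modifier subunit is Gclm (chr3:122245557-122270732). Gclm stood at 57.1 CPM in null PNX, 36.8 CPM in null sham, 22.0 CPM in control PNX and 18.7 CPM in control sham. Both null libraries were above both controls, with a ratio of 2.59 (2.24 to 3.01) for null PNX over control PNX and 1.97 (1.64 to 2.38) for null sham over control sham. Gclc stood at 290, 279, 193 and 187 CPM in the same order, also with both null libraries above both controls. Its ratios of 1.502 (1.43 to 1.58) and 1.49 (1.41 to 1.58) for those comparisons were not called. The modifier subunit was thus called higher in null cells of both surgeries and the catalytic subunit in neither.

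Of the thioredoxin and peroxiredoxin genes, Srxn1 (chr2:152105516-152111376) encodes sulfiredoxin, which repairs over-oxidised peroxiredoxins. It stood at 35.8 CPM in null PNX, 37.2 CPM in null sham, 9.52 CPM in control PNX and 8.72 CPM in control sham. The ratio was 3.76 (3.03 to 4.70) for null PNX over control PNX and 4.27 (3.33 to 5.55) for null sham over control sham. For PNX over sham it was 0.960 (0.859 to 1.07) in null cells and 1.09 (0.795 to 1.51) in control cells, and both intervals held 1. Divided by the median ratio of all genes, these were 0.824 and 0.994, and neither was called. Txnrd1 (chr10:82833951-82897712), cytosolic thioredoxin reductase, stood at 84.0, 63.9, 37.4 and 40.4 CPM in null PNX, null sham, control PNX and control sham. It was above control in both null libraries, at a ratio of 2.25 (2.01 to 2.52) with PNX, called higher, and 1.58 (1.39 to 1.80) with sham, not called. Prdx6 (chr1:161240112-161251219), a peroxidase with phospholipase activity that also takes part in surfactant lipid turnover, stood at 423, 565, 596 and 563 CPM in the same order. The CPM of null sham and control sham did not differ beyond counting error, at a ratio of 1.00 (0.968 to 1.04). Divided by the median ratio of all genes, this was 0.889 and not called. Null PNX was below the other libraries. Its lower call for null PNX over null sham was lost among cells with 0 Cldn4 UMIs, where the shifted log2 ratio was -0.55 in place of -0.64, and with cells taken by Sftpc alone, where it was -0.58.

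Nqo1 (chr8:107388225-107403206), a quinone reductase, stood at 5.45, 4.96, 2.105 and 0.982 CPM in null PNX, null sham, control PNX and control sham. The ratio was 2.59 (1.62 to 4.34) for null PNX over control PNX and 5.05 (2.43 to 12.1) for null sham over control sham, at counts too low for the call. Hmox1 (chr8:75093621-75100589), which breaks down haem, stood at 68.8, 72.7, 51.2 and 48.5 CPM in the same order and was called in no comparison. Cells of the same libraries with macrophage markers, a cell type that degrades haem, had Hmox1 at 134, 156, 65.4 and 87.2 CPM. These cells numbered 84, 59, 18 and 43. The intervals were 104 to 170, 113 to 209, 17.8 to 167 and 52.5 to 136 CPM. The control PNX value rests on 4 UMIs, and its interval held the alveolar value. In the alveolar cells the 12 macrophage markers summed to 159, 78.9, 29.0 and 55.6 CPM, with Adgre1 at 0 in control PNX, and their part in the Hmox1 values was not tested. The 8 club cell markers summed to 6066, 10866, 4957 and 10085 CPM in the same order, of which Cbr2, seen in nearly all null sham alveolar cells, gave 6100 CPM in null sham, and their part in the values of the gene group was not tested. Without cells that held 3 or more UMIs of Cyp2f2, Scgb3a2, Scgb3a1 and Muc5b, an alternative chosen after the data were seen, Gstp1, Srxn1 and Gclm kept their calls for null sham over control sham.

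**Figure D2:**
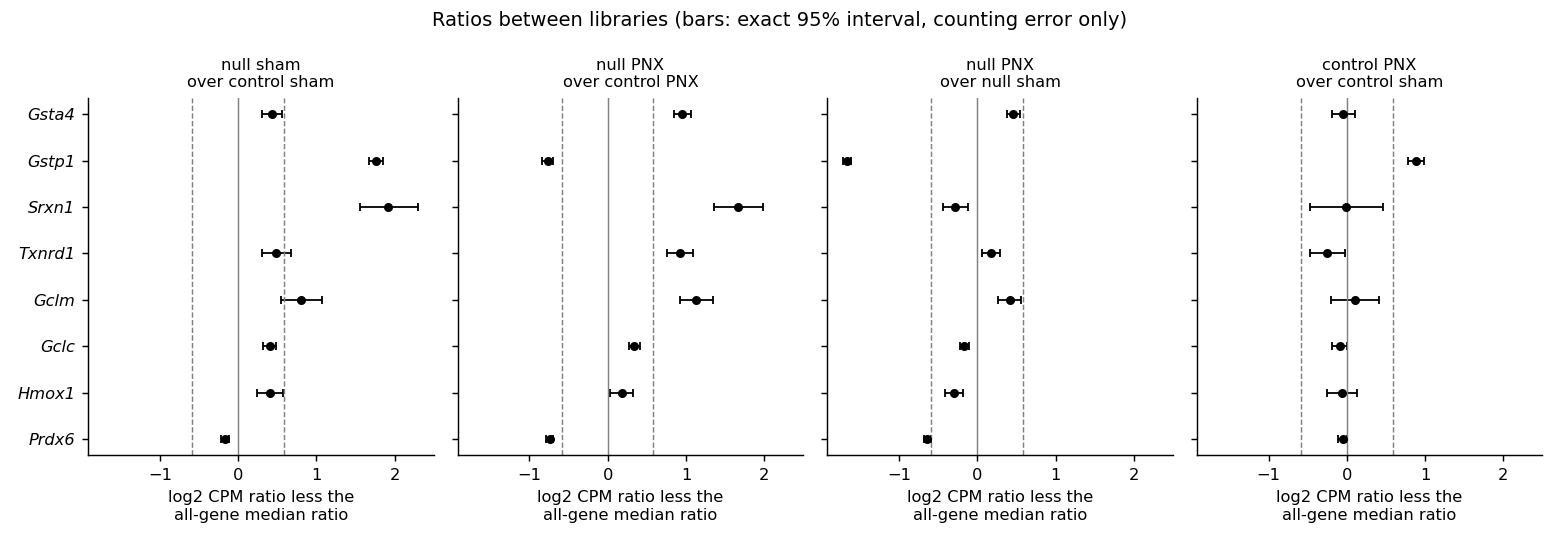
Log2 CPM ratio of 8 of the genes in the 4 comparisons, less the log2 of the median ratio of all genes, with exact 95% intervals and dashed lines at 1.5-fold and its inverse. Srxn1 lies beyond the upper line in both null over control comparisons, and Gstp1 lies above it for null sham over control sham and below the lower line for null PNX over null sham.

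Gsta1 RNA was held by few cells, and those cells also held high levels of most of the other 9 genes. In null sham, 52 of 2630 alveolar cells had a Gsta1 UMI, 21 had 2 or more and 8 had 5 or more, and the 5 highest cells held 61.8% of the Gsta1 UMIs. In null PNX, 53 of 1858 had one, 18 had 2 or more, 5 had 5 or more, and the 5 highest held 36.9%. In control PNX and control sham, 1 and 2 cells had one. Thinned to 2000 UMIs per cell, with shallower cells left out, the share of cells with a Gsta1 UMI was 0.915% (17 of 1858) in null PNX, 0.883% (22 of 2491) in null sham, 0 of 1871 in control PNX and 0.0643% (1 of 1556) in control sham. Without thinning the shares were 2.85%, 1.98%, 0.0507% and 0.120%. In null sham lymphocytes, which should lack the gene, 0 of 93 thinned cells had a Gsta1 UMI, which allows a share of up to 3.23%, and 2 of 110 unthinned cells had one (1.82%, at a median of 2849.5 UMIs). One of these held 7 Gsta1 UMIs among 21797, with 17 of Gstp1 and 11 of Gclc. The share of alveolar cells was therefore not above that of lymphocytes beyond counting error, and no expression is read from the share alone. What is described next is how Gsta1 UMIs were spread over cells, a grouping chosen after the data were seen.

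Null sham cells with a Gsta1 UMI (52 cells, median 9123 UMIs) were set against those without (2578 cells, median 5086.5 UMIs) in CPM, which scales by depth. Leaving out Nqo1, which passed the filter of 10 CPM only through the cells with Gsta1, 7 of the 8 other genes were called higher in cells with Gsta1 and 0 lower, where 11.8% of 6968 genes were called higher and 14.2% lower. Gstp1 stood at 2485 CPM in cells with a Gsta1 UMI and 468 CPM in cells without. Srxn1 stood at 282 and 28.7 CPM in the same order, a ratio of 9.84. Srxn1 had the highest ratio of the 7 genes called. Gclm stood at 184 CPM in cells with a Gsta1 UMI and 31.7 CPM in cells without, Gclc at 1072 and 252 CPM, and Gsta4 at 612 and 109 CPM. Nqo1 stood at 30.7 and 4.06 CPM, Txnrd1 at 178 and 60.0 CPM, and Prdx6 at 878 and 554 CPM. Hmox1 was the exception in null sham, at 69.6 CPM in cells with a Gsta1 UMI and 72.8 CPM in cells without. Sftpc, which the rule for alveolar cells used, stood at 47167 CPM in cells with a Gsta1 UMI against 69257 CPM in cells without, and Krt8 at 1659 against 914 CPM.

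The levels followed the number of Gsta1 UMIs per cell. Null sham cells with 0, 1, 2 to 4 and 5 or more Gsta1 UMIs numbered 2578, 31, 13 and 8, so the upper bins hold few cells and the values below rest on them. From the bin of 0 upwards, Srxn1 stood at 28.7, 129, 381 and 660 CPM. Gclm stood at 31.7, 90.6, 173 and 509 CPM, and Gclc at 252, 777, 1153 and 1945 CPM. Gstp1 stood at 468, 1749, 2314 and 5162 CPM over these bins. Each of these genes, and also Gsta4, Txnrd1 and Prdx6, was higher in every bin than in the one before it. The intervals of some neighbouring bins overlapped for Srxn1, Gclm, Txnrd1 and Prdx6. Hmox1, by contrast, stood at 72.8, 80.1, 60.7 and 46.3 CPM. Median UMIs of the cells were 5086.5, 8589, 8657 and 10379.5 over the bins, so depth moved with Gsta1 and its part was not tested. The 1327 cells with 0 Gsta1 and at least 5000 UMIs, whose median of 6797 UMIs was still below that of the cells with Gsta1, had Gstp1 at 540 CPM, Srxn1 at 31.1 CPM, Gclm at 32.4 CPM and Gclc at 235 CPM. Sftpc was lower over the bins, at 69257, 55562, 39730 and 29204 CPM. The median Krt8 was 4.98, 7.08, 13.7 and 9.02 per 10000 UMIs over the bins, highest in the bin of 2 to 4.

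**Figure D3:**
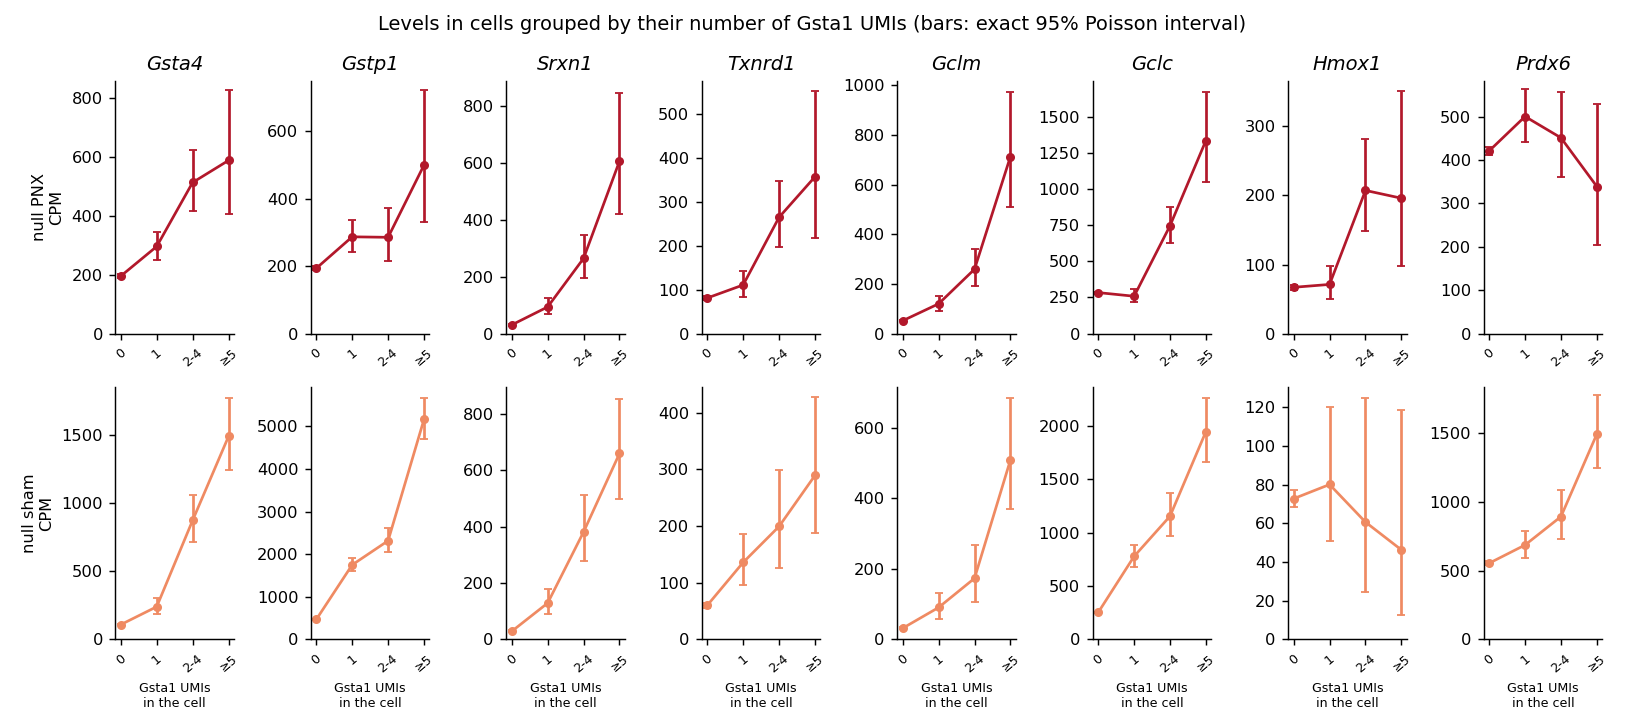
Level of 8 of the other genes (Nqo1 is not drawn), in CPM, in null PNX and null sham cells grouped by their number of Gsta1 UMIs, with exact 95% Poisson intervals. The bins are 0, 1, 2 to 4 and 5 or more Gsta1 UMIs. In null sham cells, Srxn1 stands at 28.7, 129, 381 and 660 CPM and Hmox1 at 72.8, 80.1, 60.7 and 46.3 CPM. In null PNX cells, Hmox1 stands at 67.0, 71.2, 207 and 196 CPM.

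In null PNX cells the same grouping gave 1805, 35, 13 and 5 cells. Srxn1 stood at 30.4, 93.6, 264 and 606 CPM and Gclm at 51.7, 120, 259 and 713 CPM over the bins. Gclc stood at 284, 258, 746 and 1337 CPM, and Gstp1 at 193, 287, 285 and 499 CPM. Srxn1 and Gclm were thus higher in each bin than in the one before it, and Gclc and Gstp1 were not. Hmox1, the exception in null sham, stood at 67.0, 71.2, 207 and 196 CPM over these null PNX bins. It was among the genes called higher in null PNX cells with a Gsta1 UMI, at 114 CPM against 67.0 CPM without. Again leaving out Nqo1, 6 of the 8 other genes were called higher in null PNX cells with a Gsta1 UMI and 0 lower, beside 6.03% and 7.48% of 7382 genes, and the uncalled genes were Gstp1 and Prdx6. Whether the libraries differ in this relation was not tested. Removing every cell with a Gsta1 UMI left the null sham over control sham calls of Srxn1, Gstp1 and Gclm in place, with shifted log2 ratios of 1.54, 1.57 and 0.59, against 1.91, 1.76 and 0.80 with all cells. Gclm then lay just past the threshold of 1.5-fold.

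The genes whose per-cell counts in null sham followed Gsta1 most closely were named by Spearman's rho over 2491 cells of 1 library, thinned to 2000 UMIs. The highest was Srxn1 at 0.197, then Sfn at 0.136, Gstp1 and Gclm at 0.134 each, Gsta4 at 0.132, Taldo1 at 0.127, Mt2 at 0.125, Procr at 0.124, Ftl1 at 0.122 and Plk2 at 0.119. Of the 10, 4 are members of the gene group. In sparse counts a weak correlation is no finding, and these values only order the genes. In CPM, Taldo1, an enzyme of the pentose phosphate pathway, stood at 939 in null sham cells with a Gsta1 UMI and 187 in cells without. Sfn, a 14-3-3 protein of squamous and transitional cells, stood at 788 and 157 CPM, and Mt2, a metallothionein, at 393 and 122 CPM. Gsta2 stood at 45.0 and 0.142 CPM in the same order, and reads of Gsta1 and Gsta2 may be shared. Among club cell markers, Cyp2f2 was higher in cells with a Gsta1 UMI, at 71.6 CPM against 40.2 CPM in cells without, a ratio of 1.78 (1.23 to 2.51). Scgb1a1 was lower, at 2584 against 4768 CPM, as was Cbr2, at 3725 against 6183 CPM, and Scgb3a2 stood at 8.18 against 9.69 CPM. The platelet gene Pf4 stood at 24.5 against 26.2 CPM, and the part of these markers in the values of the gene group was not tested.

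The per-cell relation of the genes to Krt8 was weak in null sham. With 2491 cells thinned to 2000 UMIs, 0 of the 10 genes had a Spearman's rho with Krt8 of at least 0.1, where 1.05% of 7059 genes did. The highest were Gstp1 at 0.0979 and Srxn1 at 0.0840, and the lowest was Prdx6 at -0.0715, beside an all-gene median of 0.00136 and a 90th percentile of 0.0378. With 1861 cells thinned to 4000 UMIs, Srxn1 stood at 0.161 and Gstp1 at 0.151, and 2.56% of genes reached 0.1. In 1858 null PNX cells, Txnrd1 stood at 0.101 and Srxn1 at 0.0934, and Gstp1 at -0.0814 and Prdx6 at -0.108, where 6.45% of genes reached 0.1. The cells of each library share its preparation and its depth.

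Null sham cells were also grouped by their Krt8 level, and Srxn1, Gstp1 and Gclm were lowest in the cells without Krt8. The bins were 0, over 0 to under 10, 10 to under 20, 20 to under 40, and 40 or more Krt8 UMIs per 10000, and held 423, 1611, 381, 151 and 64 cells. Over these bins Srxn1 stood at 17.8, 29.9, 56.7, 73.6 and 80.7 CPM, and Gstp1 at 306, 517, 640, 764 and 710 CPM. Gclm stood at 27.0, 31.3, 56.7, 53.4 and 52.5 CPM, and Prdx6 at 598, 589, 512, 510 and 337 CPM. By these values Srxn1 was higher in each bin than in the one before it, though the intervals of the 3 upper bins overlapped, Gstp1 and Gclm levelled off in the upper bins, and Prdx6 ran the other way. Gsta1 stood at 1.84, 17.7, 18.9, 34.3 and 14.1 CPM, so its few cells were not gathered at the highest Krt8. Hmox1 showed no order, at 64.9, 77.4, 62.7, 71.6 and 56.5 CPM. Median UMIs per cell were 3686, 5434, 5468, 6298 and 8114.5 over the bins, and the part of depth was not tested.

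In null PNX the bins held 19, 558, 524, 445 and 312 cells, and the bin without Krt8 is too small to read. Over the other 4 bins Srxn1 stood at 19.97, 28.4, 47.5 and 54.5 CPM, Txnrd1 at 61.1, 76.3, 92.3 and 118 CPM, and Gclm at 38.5, 56.7, 63.3 and 76.6 CPM. These genes were higher in each bin than in the one before it, though the intervals of some neighbouring bins overlapped for Srxn1 and Gclm. Gstp1 stood at 209, 223, 194 and 150 CPM, Gsta4 at 220, 232, 197 and 138 CPM, and Prdx6 at 458, 478, 388 and 338 CPM. All of these were lowest in the bin of highest Krt8. Gstp1 was thus lowest in the top of these 4 bins in null PNX and lowest in the bin without Krt8 in null sham, and the difference between the libraries was not tested.

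**Figure D4:**
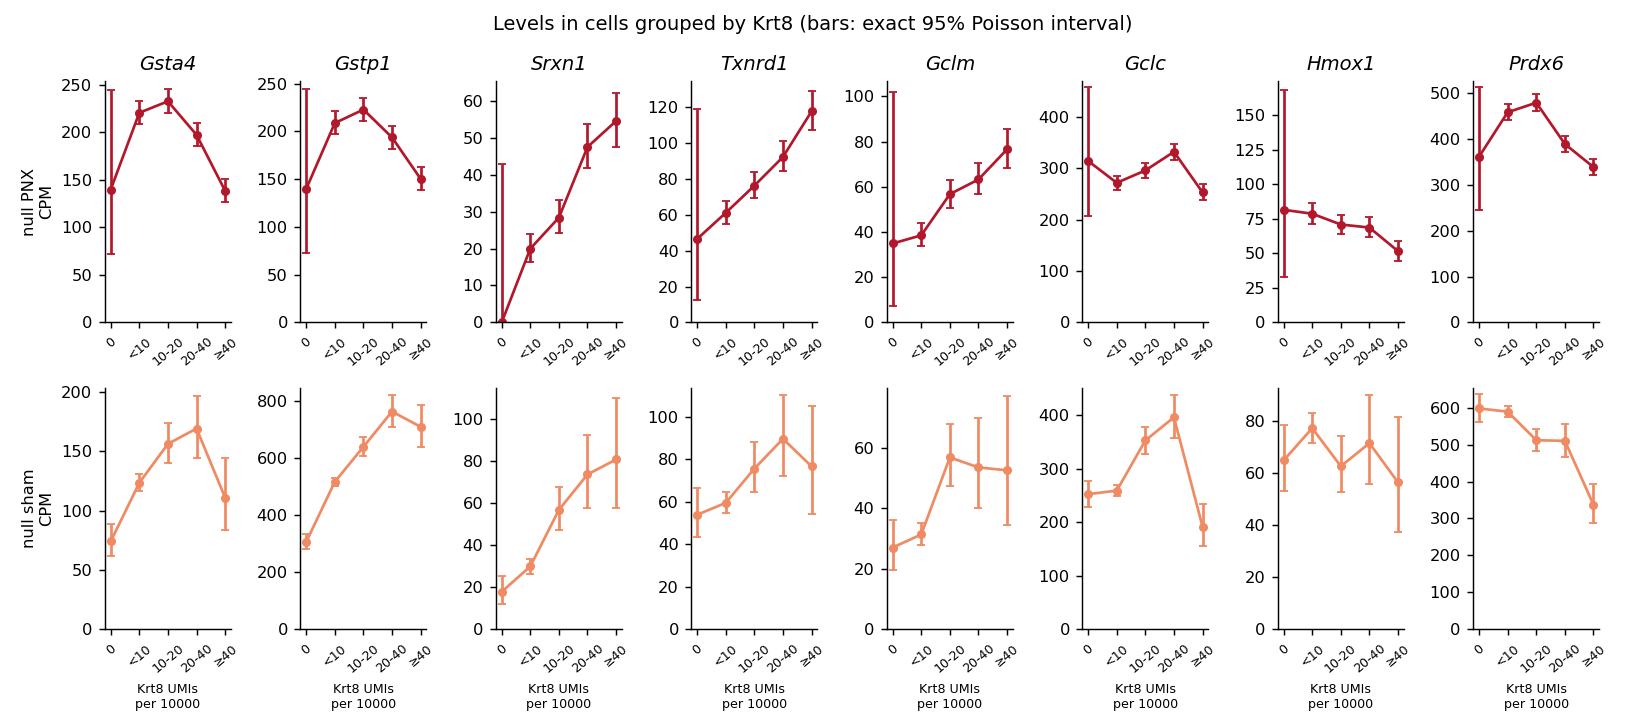
Level of 8 of the genes (Gsta1 and Nqo1 are not drawn), in CPM, in null PNX and null sham cells grouped by Krt8 UMIs per 10000 UMIs, with exact 95% Poisson intervals. Srxn1 stands at 19.97, 28.4, 47.5 and 54.5 CPM over the 4 upper bins in null PNX, and at 17.8, 29.9, 56.7, 73.6 and 80.7 CPM over the 5 bins in null sham, while Prdx6 is lowest in the top bin of null sham.

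Cells of 20 or more Krt8 UMIs per 10000 were also set against cells under 10 of the same library. In null PNX (757 against 577 cells), Srxn1 at 50.6 against 19.7 CPM and Gclm at 69.1 against 38.5 CPM were called higher, and Hmox1 at 61.2 against 78.7 CPM was called lower, where 11.2% of 7341 genes were called higher and 12.7% lower. In null sham (215 against 2034 cells), Gstp1 at 746 against 486 CPM, Srxn1 at 76.0 against 28.1 CPM and Gclm at 53.1 against 30.6 CPM were called higher, as was Gsta1, and 0 were called lower, where 10.1% of 6921 genes were called higher and 9.33% lower. Srxn1 and Gclm were called higher in Krt8-high cells of both null libraries. A class cut from a level per cell is a range and not a cell type, and 298 null PNX and 137 null sham cells lay within 20% of the cut of 20. Cldn4 split null PNX cells into 998 with and 860 without a UMI, and 0 of 8 genes were called between them, where 7.07% of all genes were called higher and 6.92% lower. Srxn1 came closest, at 41.1 CPM with Cldn4 and 28.0 CPM without.

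Null cells with little or no Krt8 were also set against control cells of the same Krt8 bin, where some of the genes differed. A bin is a range and does not match Krt8 cell by cell, and the part of Krt8 was not tested. The ratios are not divided by the median ratio of all genes. That median was 1.14 for null sham at 0 Krt8 UMIs, 1.13 for null sham over 0 to under 10, and 1.10 for null PNX in the latter bin. Among cells with 0 Krt8 UMIs (423 of null sham, 1007 of control sham), Gstp1 stood at 306 CPM in null sham and 128 CPM in control sham, a ratio of 2.39 (2.12 to 2.70). Srxn1 stood at 17.8 and 8.53 CPM in the same cells, a ratio of 2.08 (1.24 to 3.47). Gclm stood at 27.0 and 20.2 CPM, and its interval of 0.909 to 1.93 held 1. Divided by the median ratio, Gclm, Gsta4, Txnrd1, Gclc, Hmox1 and Prdx6 lay at 1.17, 0.815, 1.18, 1.10, 1.26 and 0.968, none past 1.5-fold. Median UMIs of these cells were 3686 in null sham and 4380 in control sham. Among cells with Krt8 over 0 and under 10 per 10000 (1611 of null sham, 643 of control sham), Gstp1 stood at 517 and 153 CPM, a ratio of 3.39, and Srxn1 at 29.9 and 8.04 CPM, a ratio of 3.71 (2.53 to 5.65). Gclm stood there at 31.3 and 16.1 CPM, a ratio of 1.94 (1.46 to 2.62), and at 1.72 once divided by the median ratio. After that division Gsta4, Txnrd1, Gclc, Hmox1 and Prdx6 lay at 1.25, 1.36, 1.36, 1.28 and 0.887, none past 1.5-fold. Gstp1 and Srxn1 were thus higher in null sham in both Krt8 bins, and Gclm passed 1.5-fold only in the bin over 0 to under 10. In the same bin after PNX (558 null, 887 control cells, median UMIs 9889 and 5450), Gsta4 stood at 220 CPM in null PNX and 100 CPM in control PNX. Srxn1 stood at 19.97 and 9.02 CPM and Gclm at 38.5 and 21.0 CPM. Gstp1 was lower there, at 209 CPM in null PNX and 299 CPM in control PNX, and Prdx6 likewise, at 458 and 597 CPM.

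Other genes of the pathway were read from gene lists that had been made with earlier results known. Of 21 measured NRF2 targets other than the 10 genes, 10 were called higher and 0 lower for null sham over control sham, with a median shifted log2 ratio of 0.48, beside 7.97% and 6.74% of all genes. They were led by Ptgr1, a prostaglandin reductase, at 81.1 CPM in null sham and 20.4 CPM in control sham, then Cbr3 at 17.8 and 5.03 CPM and Akr1b8 at 59.3 and 17.6 CPM. For null PNX over control PNX, 11 were called higher and 2 lower, with a median of 0.84, beside 20.7% and 21.6% of all genes. The aldo-keto reductase Akr1b8 stood at 188 CPM in null PNX and 20.05 CPM in control PNX, and Cbr3, a carbonyl reductase, at 42.3 and 4.91 CPM. Those called lower were Gstm1 and Ephx1. For null PNX over null sham the counts were 6 and 1, beside 16.2% and 20.1% of all genes, and for control PNX over control sham 3 and 0, beside 3.57% and 3.13%. Cells with a Gsta1 UMI in null sham had Akr1b8 at 182 CPM against 55.1 CPM in cells without, and Cbr3 at 81.8 against 15.5 CPM.

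The other lists are read against the same shares of all genes, 7.97% higher and 6.74% lower for null sham over control sham and 20.7% higher and 21.6% lower for null PNX over control PNX. Of 6 measured genes of glutathione supply and recycling, Gclm, Gss and Gsr were called higher for null sham over control sham, with Gss, glutathione synthetase, at 29.2 CPM in null sham and 15.8 CPM in control sham and Gsr, glutathione reductase, at 67.0 and 39.0 CPM. Of 14 glutathione S-transferases, 2 were called higher and 4 lower for null sham over control sham, and 3 higher and 4 lower for null PNX over control PNX, the second pair of counts near the share of all genes. Among them Mgst3 stood at 418 CPM in null PNX and 78.0 CPM in control PNX, and Gstm2 at 4.40 and 30.1 CPM in the same order. Of 17 thioredoxin and peroxiredoxin genes, Srxn1 alone was called for null sham over control sham. For null PNX over control PNX, 8 were called higher and 3 lower, the lower count near the share of all genes. Prdx4, the peroxiredoxin of the endoplasmic reticulum, stood at 350 CPM in null PNX and 78.5 CPM in control PNX. Of 7 NADPH supply genes, Pgd and Taldo1 were called higher in both null over control comparisons, with Pgd at 248 CPM in null sham and 95.02 CPM in control sham. Of 9 NRF2 regulators, Maff, Sqstm1 and Mafg were called higher for null sham over control sham, and for null PNX over control PNX Sqstm1 and Maff were called higher and Bach1 lower. Nfe2l2 itself stood at 209, 146, 152 and 111 CPM in null PNX, null sham, control PNX and control sham and was called in none of the 4 comparisons.

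**Figure D5:**
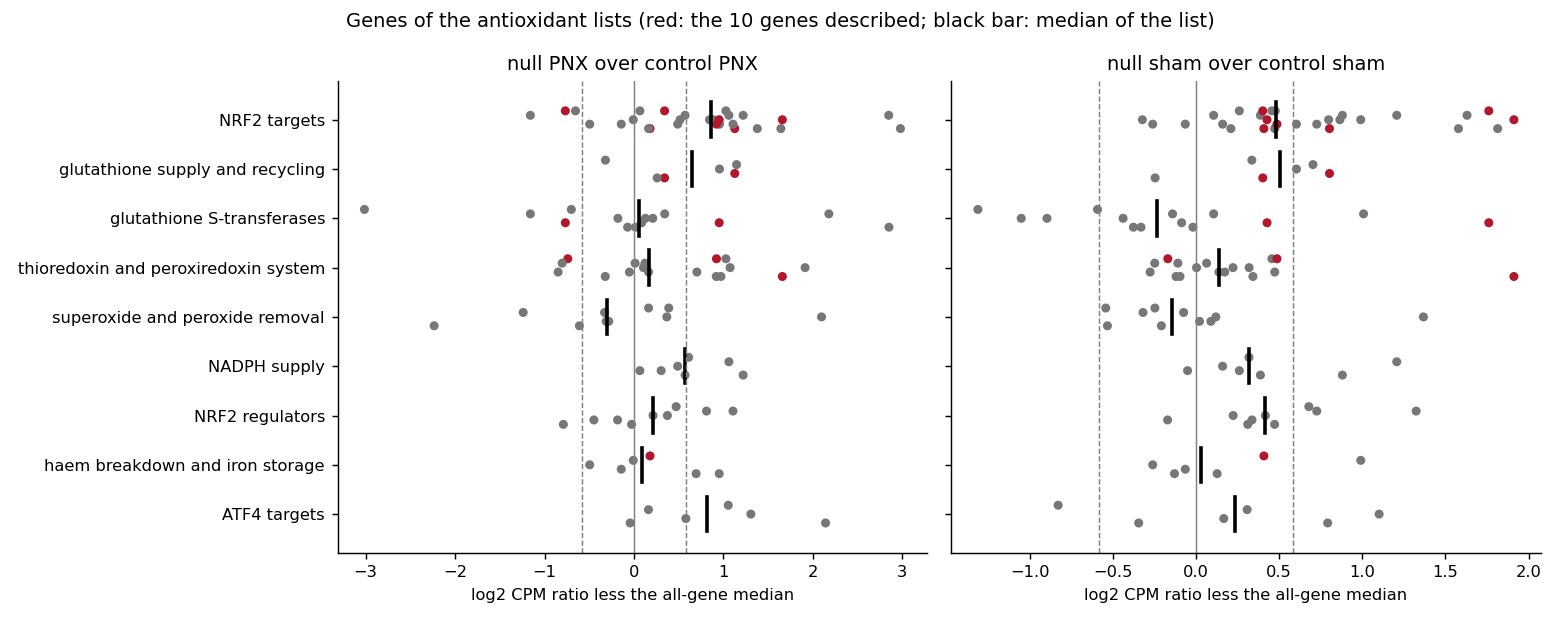
Shifted log2 ratio of each measured gene of the antioxidant lists for null PNX over control PNX and null sham over control sham, each point 1 gene (red for the 10 genes described), with a bar at the list's median and dashed lines at 1.5-fold; the horizontal scales of the panels differ. NRF2 targets, drawn here with the members included, lie mostly above 0, and the glutathione S-transferases lie on both sides of 0.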

How the data were processed

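GFP+ AT2 cells from 4 groups of mice were profiled with the 10x Genomics 3′ protocol, 1 library per group. The deposited table holds raw UMI counts per gene and cell, made by the authors. Per the submitters' processing notes, Cell Ranger 2.1.0, Seurat 2.3.4 and mm10 were used, and the sources used here give no annotation release, doublet treatment or multi-mapping rule. Barcode endings gave each cell's library, per the labels.

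Counts were summed over alveolar cells per library and scaled to CPM. CPM ratios had exact 95% binomial intervals, and levels exact Poisson intervals. With 1 library per group no test was made and no p-value exists. Shares and Spearman's rho used cells thinned to 2000 UMIs, leaving out shallower cells. Doublets were not called here, and free RNA was not removed. Paralog pairs such as Gsta1 and Gsta2, or Gstp1 and Gstp2, are uncertain. The members, gene lists and thresholds were chosen with earlier results of these data known. Named genes were the 10 members, Cdc42, Krt8, Sftpc and Cldn4, up to 3 called genes at each end of every list and comparison, and the 10 genes of highest rho with Gsta1. Others are said to be chosen after their values were seen: Gsta2, Gstp2, Nfe2l2 and the single marker genes. The steps were tested on simulated data.

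Coordinates are mm10 (GENCODE M21) and promoters RefSeq GRCm38.p6. Python 3.11.15, numpy 2.4.6, scipy 1.17.1, pandas 2.3.3, matplotlib 3.10.9, R 4.3.3 and edgeR 4.0.16, the last for TMM factors only, were used.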

Additional observations from a re-analysis of the deposited data

Results flagged for a closer look

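The PNX over sham ratio of Gstp1 lay on opposite sides of 1 in null and control cells. Relative to the median gene, it was 0.316 in null cells and 1.84 in control cells. Txnrd1 did the same within a narrower range, at 1.13 in null cells and 0.842 in control cells, with neither past 1.5-fold. Each direction rests on 1 library per group, and the difference between genotypes was not tested.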

How the results depend on the processing

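No paired analysis was possible because each group is 1 library. Of the 10 genes, 8 passed the filter on mean CPM. Shares of all genes called higher and lower, in brackets, are given for the main setting only. For null sham over control sham 3 were called (7.97%, 6.74%), and for null PNX over control PNX 6 (20.7%, 21.6%). For null PNX over null sham 2 were called (16.2%, 20.1%), and for control PNX over control sham 1 (3.57%, 3.13%). Without a filter on mean CPM, the first count was 5 and the last 3, and with a mean of at least 50 CPM the first was 1, since fewer genes are then counted. At a fold of 2, the last 3 counts were 2, 1 and 0. Under the other settings they lay at 2 to 3, 4 to 8, 2 to 3, and 1. The count of genes with a Krt8 rho of at least 0.1 in null sham was 0, against 2 with cells thinned to 4000 UMIs and 1 with Pearson's r, and the count called between Cldn4-positive and Cldn4-negative cells was 0, against 2 with thinned cells, the cause of which was not tested. The share of null sham cells with a Gsta1 UMI was 0.883%, against 1.99% thinned to 4000 UMIs and 1.98% unthinned, where more UMIs per cell are read. No member ratio that was called changed sign. A planned filter on club marker UMIs left 47, 1, 29 and 8 cells in null PNX, null sham, control PNX and control sham and gave no value; filters on shared barcodes, on 4 club genes, on Gsta1 cells and on Cldn4 for rho, and thinning for the Cldn4 split, were chosen after the data were seen. Depth limits Gsta1 and Nqo1 most.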

Other observations

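Of 10 measured genes that remove superoxide and peroxide, 1 was called higher and 0 lower for null sham over control sham, near the 7.97% and 6.74% of all genes. It was Gpx2, a glutathione peroxidase of epithelia, at 62.7 CPM in null sham and 21.5 CPM in control sham. For null PNX over control PNX, Gpx2 was called higher, at 172 CPM in null PNX and 34.0 CPM in control PNX, and 3 were called lower, where 20.7% of all genes were called higher and 21.6% lower. Catalase, Cat, stood at 132 CPM in null PNX and 523 CPM in control PNX, against 423 CPM in null sham and 433 CPM in control sham. The ferritin light chain Ftl1, an NRF2 target that stores iron, stood at 4874 CPM in null sham and 2174 CPM in control sham, and at 9036 CPM in null sham cells with a Gsta1 UMI against 4729 CPM in those without. Of 6 measured ATF4 targets, genes of the amino acid stress response, 2 were called higher and 1 lower for null sham over control sham. For null PNX over control PNX 3 were called higher and 0 lower. Both pairs of counts stand beside the same shares of all genes. Asns, asparagine synthetase, stood at 32.7 CPM in null PNX and 6.21 CPM in control PNX, and Nupr1, a stress-induced chromatin protein, at 911 and 371 CPM. Nupr1 was lower in null sham than in control sham, at 442 and 696 CPM.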
